A study of Homo sapiens with 18 samples.

Results

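NGFR, RASSF10, CREB5, BEST1, PIF1, MEIOB, TNFAIP8L1 and IER5L-AS1 are 8 of the 58884 genes counted in T47D breast cancer cells treated with a PARP inhibitor, and they were chosen by their fold changes with niraparib or olaparib in WT cells. None was picked for a place in a common pathway. Their WT values are therefore a description and carry no test. These 8 genes are tested within the PARP1 KO libraries, whose values were not part of the rule of choice. Earlier results of these data were known when the choice was made.

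T47D is an estrogen receptor-positive luminal breast cancer line, and its polyadenylated RNA was sequenced here after exposure to drug. WT cells (the line T47D AAV) and PARP1 KO cells (the line T47D JL) received DMSO, olaparib at 10 µM or niraparib at 10 µM for 48 h, with 3 libraries in each of the 6 groups. Each genotype is represented by 1 line, so genotype and line cannot be told apart. The study's methods for omics treatments describe as many dishes for each condition as there are libraries in a group. The labels do not tie the 3 libraries of a group to separate dishes or cultures, so P values measure only the spread between these samples.

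PARP1 and PARP2 bind DNA breaks and build chains of ADP-ribose on themselves and on nearby proteins, and PARP inhibitors block this reaction and can hold the enzymes on DNA. The genes followed here lie in separate parts of cell biology. NGFR is a cell surface receptor for neurotrophins, RASSF10 carries a Ras association domain, CREB5 is a transcription factor of the leucine zipper class and BEST1 is a chloride channel, while PIF1 and MEIOB act on DNA, TNFAIP8L1 belongs to a family of lipid-binding proteins and IER5L-AS1 is a long noncoding RNA.

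Library totals ran from 28890837 to 52251288 counts. By group they were 30293678 to 52251288 in WT DMSO, 31810723 to 38707275 in WT olaparib and 32091426 to 51595251 in WT niraparib. The PARP1 KO groups spanned 30843001 to 37601647 with DMSO, 29760855 to 40873768 with olaparib and 28890837 to 42054783 with niraparib. Levels below are in CPM, each library's counts scaled to 1 common total, and they are compared between libraries for 1 gene at a time.

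PARP1, the targeted gene, was at 343, 368 and 366 CPM in WT DMSO, at 336, 346 and 340 CPM in WT olaparib and at 327, 313 and 328 CPM in WT niraparib. In PARP1 KO it was at 24.6, 24.1 and 24.4 CPM with DMSO, at 24.1, 27.1 and 25.6 CPM with olaparib and at 23.8, 22.9 and 26.4 CPM with niraparib. Every PARP1 KO library lay below every WT library, and some PARP1 transcript was still counted in each of them.

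The cells carried the markers of their labelled type. All 8 luminal markers, among them ESR1, GATA3 and FOXA1, averaged 1 CPM or more, and KRT8 was the most abundant at a mean of 3452 CPM. Their summed level was 12210 to 12760 CPM in WT DMSO, 9610 to 10000 CPM in WT olaparib and 9506 to 10210 CPM in WT niraparib, against 13360 to 14160, 11230 to 12510 and 12470 to 13060 CPM in the corresponding PARP1 KO groups. The luminal sum was thus lower in both drug groups than in DMSO in each genotype, without overlap, and its part in the values below was not tested. Not every luminal marker followed the sum. In WT the mean of EPCAM was 191.3 CPM with DMSO, 207.8 CPM with olaparib and 197.9 CPM with niraparib, while the other means fell with both drugs. With olaparib in PARP1 KO the means of EPCAM (196.4 against 195.2 CPM) and GATA3 (1096 against 1076 CPM) were higher than with DMSO, and the others were lower. Of 7 basal markers 4 averaged 1 CPM or more, with ACTA2 most abundant, and KRT5 and KRT14 stayed below 1 CPM in every library. Their sum was 48.4 to 51.4 CPM in WT DMSO, 58.25 to 61.3 CPM in WT olaparib and 65.5 to 67.4 CPM in WT niraparib, against 45.2 to 49.4, 50.03 to 55.7 and 49.2 to 53.1 CPM in the corresponding PARP1 KO groups. The basal sum was thus higher than in DMSO without overlap in both WT drug groups and in PARP1 KO olaparib, while PARP1 KO niraparib overlapped with its DMSO group. Mean levels were higher in WT niraparib than in WT DMSO for ACTA2 (50.03 against 40.94 CPM) and MYLK (9.61 against 5.69 CPM). They were also higher for KRT17 (2.69 against 0.118 CPM) and TP63 (2.54 against 1.39 CPM). The mean of OXTR was lower (1.366 against 1.499 CPM), as were those of KRT5 and KRT14. The part of the basal sum in the values below was not tested. In bulk RNA, fewer cells of a kind and less RNA per cell cannot be told apart.

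Replicates were not equally close. Between WT niraparib replicates 1 and 3 the chi-square of the counts per degree of freedom was 3.72, but replicate 2 differed from them by 14.5 and 20.3. WT DMSO replicate 1 stood apart from replicates 2 and 3 in the same way, at 22.5 and 20.4, while those 2 differed by 3.59. In PARP1 KO the most distant pair was olaparib replicates 1 and 3, at 20.99, and niraparib replicate 3 differed from the others of its group by 13.5 and 17.1. No pair of replicates was as close as counting noise allows.

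Genes were called when edgeR's adjusted P was below 0.05 and the change exceeded 1.5-fold. All 8 genes passed the filter of more than 10 counts in both genotypes. With niraparib in WT all 8 were called, beside 13.8% of the 22446 genes tested, and with olaparib 4 were called beside 4.04%; the choice used these comparisons, and nothing is read from the counts. In PARP1 KO 0 of the 8 were called with niraparib, where 0.0136% of 22037 genes were called, 2 with olaparib, where 0.803% were, and 2 between niraparib and olaparib, where 1.07% were. At an unadjusted P below 0.05, 4 of the 8 passed with niraparib in PARP1 KO, beside 9.13% of all genes tested (2013 of 22037). Over all 8, DESeq2 called 1 there and gave no adjusted P for 3. An unadjusted P below 0.05 was also found for 4 of the 8 with olaparib, beside 21.1% of all genes, and between the drugs, beside 22.1%. The count of 2 with olaparib fell to 1 without olaparib replicate 2, without DMSO replicate 1 or without DMSO replicate 2, and was 3 with no filter on low counts and with only the 6 libraries compared. The count of 2 between the drugs was 3 without niraparib replicate 3. The genes called with olaparib were RASSF10 and NGFR by edgeR, and BEST1 and NGFR by DESeq2, which gave no adjusted P for RASSF10.

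**Figure D1:**
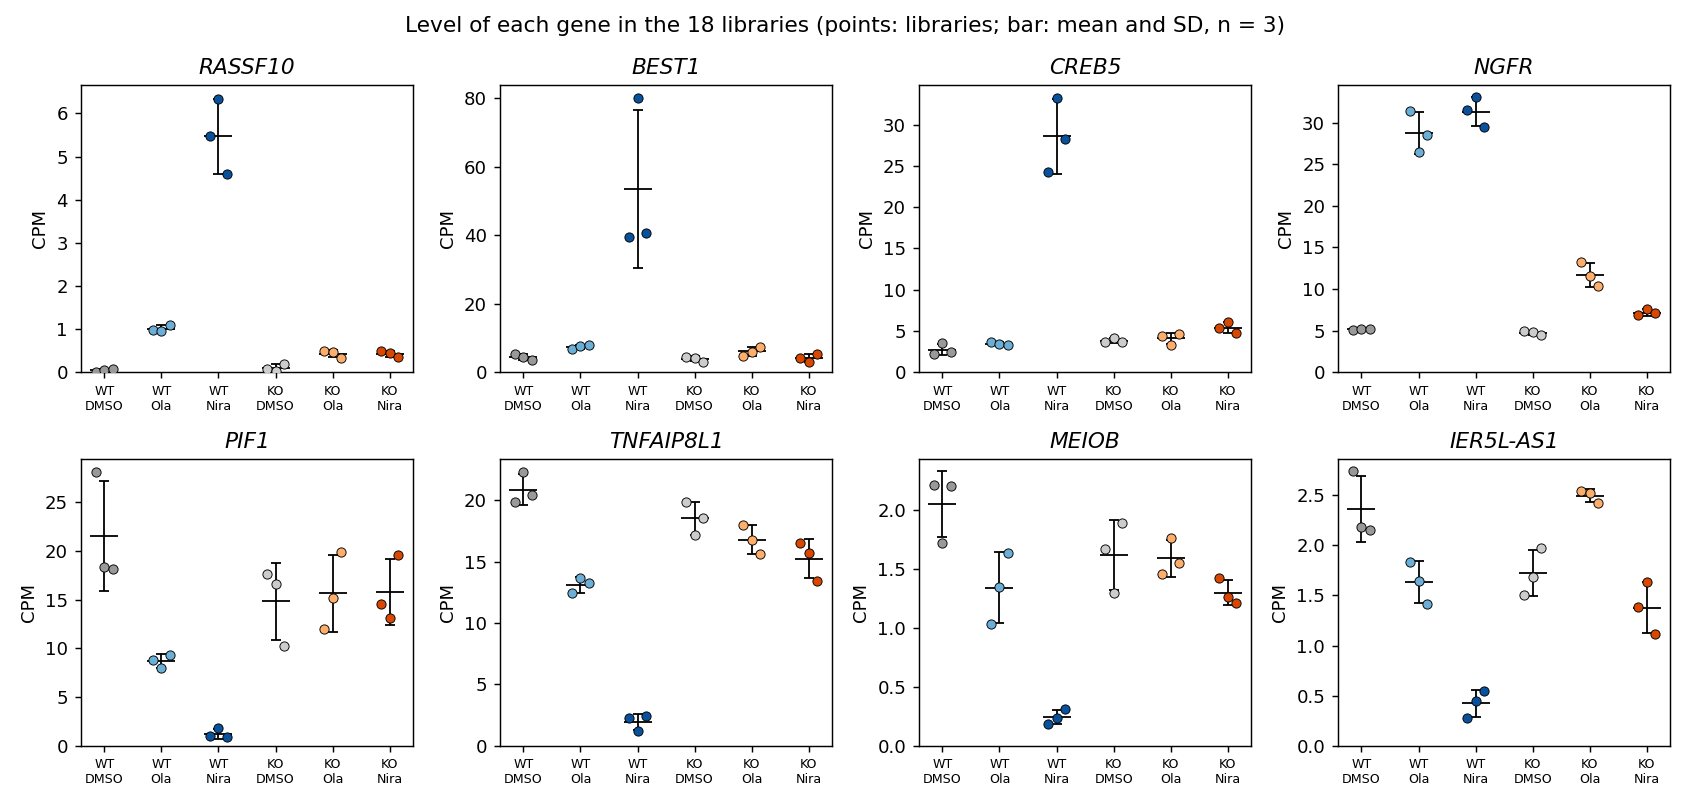
Level of each gene in CPM (vertical axes, each from 0) in the 6 groups of WT and PARP1 KO libraries, with 1 point for each library and a bar for the mean and SD of n = 3. The WT niraparib libraries stand apart from WT DMSO in every panel. In PARP1 KO the olaparib libraries lie above the DMSO libraries without overlap for NGFR, RASSF10, IER5L-AS1 and BEST1.

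Among the genes chosen as WT niraparib responders, the order by size of change was set against 2218 genes called in WT that averaged 1 CPM or more and whose libraries did not overlap. RASSF10 ranked 2, PIF1 5, TNFAIP8L1 6, BEST1 7, CREB5 8, MEIOB 10, IER5L-AS1 22 and NGFR 23. RASSF10 met the mean of 1 CPM only through WT niraparib (5.47 CPM against 0.0375 CPM in WT DMSO). MEIOB and IER5L-AS1 met it only through WT DMSO (2.05 and 2.36 CPM, against 0.243 and 0.423 CPM in WT niraparib). NGFR, the last of the 8, had a log2 fold change of 2.52, and RAB39B, just outside at rank 24, had 2.50. In the corresponding olaparib list of 638 genes NGFR ranked 1, PIF1 37 and TNFAIP8L1 448, and the other 5 genes were not in it. RASSF10, with a log2 fold change of 4.53 and libraries that did not overlap, was left out there by the mean of 1 CPM alone (1.01 CPM in WT olaparib and 0.0375 CPM in WT DMSO), so the rank of NGFR holds only among genes above that mean.

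NGFR encodes the low-affinity receptor for nerve growth factor, a member of the tumor necrosis factor receptor family, and lies (ENSG00000064300) at chr17:49495293-49515008 on the plus strand of GRCh38. It was at 5.05, 5.13 and 5.20 CPM in WT DMSO, at 31.5, 26.5 and 28.5 CPM in WT olaparib and at 31.5, 33.1 and 29.5 CPM in WT niraparib. In PARP1 KO it was at 4.96, 4.77 and 4.41 CPM with DMSO, at 13.3, 11.5 and 10.4 CPM with olaparib and at 6.85, 7.58 and 7.06 CPM with niraparib. Both drug groups were high in WT and overlapped, while the 3 PARP1 KO groups formed steps without overlap, DMSO lowest and olaparib highest. By mean the order was WT niraparib (31.4 ± 1.76 CPM, SD, n = 3) and WT olaparib (28.8 ± 2.52), which overlapped, then PARP1 KO olaparib (11.7 ± 1.44), PARP1 KO niraparib (7.16 ± 0.373), WT DMSO (5.13 ± 0.0738) and PARP1 KO DMSO (4.71 ± 0.275), each apart from the next.

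In WT the log2 fold change of NGFR was 2.52 with niraparib and 2.49 with olaparib. In PARP1 KO NGFR rose with olaparib by a log2 fold change of 1.33 (SE 0.12, edgeR adjusted P = 1.52e-06), higher in 3 of 3 libraries than in any DMSO library. With niraparib its log2 fold change in PARP1 KO was 0.59 (SE 0.12, 95% interval 0.34 to 0.84), with an edgeR adjusted P of 0.0524 that did not pass, higher than every DMSO library in 3 of 3. That fold sits at the threshold, and the adjusted P was 0.0095 by DESeq2, which called it, within a range of 0.00333 to 0.267 over the alternatives. Niraparib was lower than olaparib in PARP1 KO by a log2 difference of -0.74 (SE 0.11, edgeR adjusted P = 0.00029). The difference between the genotypes was not tested.

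RASSF10, a member of the Ras association domain family (ENSG00000189431), lies at chr11:13009577-13012106 on the plus strand. Its counts were 0, 2 and 3 in WT DMSO, 38, 35 and 35 in WT olaparib and 176, 327 and 178 in WT niraparib. In PARP1 KO they were 3, 1 and 7 with DMSO, 19, 19 and 10 with olaparib and 14, 14 and 15 with niraparib. Every drug library held more RASSF10 counts than any DMSO library of its genotype, and the counts are low for the depth of the libraries. Mean levels ran from WT niraparib (5.47 ± 0.871 CPM, SD, n = 3) over WT olaparib (1.01 ± 0.0820) to both PARP1 KO drug groups (0.426 ± 0.0784 with olaparib and 0.424 ± 0.0642 with niraparib), which overlapped, and then to both DMSO groups, which overlapped too.

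Summed over the group and divided by depth, RASSF10 stood at 137 times its DMSO level with niraparib in WT (exact 95% interval 58.3 to 423) and at 24.7 times with olaparib (10.2 to 77.5). In PARP1 KO the ratio was 3.99 with niraparib (2.02 to 8.58) and 4.17 with olaparib (2.14 to 8.91). These intervals cover counting error only. The fitted WT log2 fold changes were 6.88 with niraparib and 4.53 with olaparib. They were 7.55 and 5.20 without DMSO replicate 3, and 6.49 and 4.14 without DMSO replicate 1. RASSF10 rose with olaparib in PARP1 KO by a fitted log2 fold change of 2.03 (SE 0.54, edgeR adjusted P = 0.0226), and with niraparib the fitted value was 1.98 (SE 0.55, edgeR adjusted P = 0.187), which passed only with all 18 libraries in the fit (edgeR adjusted P = 0.0436, within a range of 0.0436 to 0.545). Without DMSO replicate 3 these PARP1 KO values were 2.83 and 2.76, and without DMSO replicate 2 they were 1.663 and 1.595. The call with olaparib was lost without 1 of 4 single libraries: the edgeR adjusted P was 0.0628 without olaparib replicate 1, 0.0832 without olaparib replicate 2, 0.0834 without DMSO replicate 1 and 0.111 without DMSO replicate 2. Over all alternatives that gave one it ran from 0.0026 to 0.111, and DESeq2 gave none.

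CREB5 encodes a transcription factor that binds cyclic AMP response elements, and its gene (ENSG00000146592) spans 526574 bases at chr7:28299321-28825894 on the plus strand. It was at 2.15, 3.48 and 2.48 CPM in WT DMSO, at 3.62, 3.45 and 3.24 CPM in WT olaparib and at 24.2, 33.2 and 28.3 CPM in WT niraparib. Its PARP1 KO levels were 3.69, 4.12 and 3.59 CPM with DMSO, 4.4, 3.33 and 4.57 CPM with olaparib and 5.30, 6.04 and 4.76 CPM with niraparib. WT niraparib stood far above the other 5 groups, and the PARP1 KO niraparib libraries lay just above the remaining libraries of that genotype. The means were 28.6 ± 4.52 CPM (SD, n = 3) in WT niraparib and 5.36 ± 0.644 CPM in PARP1 KO niraparib, followed by 4 groups that overlapped from 1 to the next.

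The WT log2 fold change of CREB5 was 3.27 with niraparib and 0.31 with olaparib. In PARP1 KO it was 0.48 with niraparib (SE 0.15, 95% interval 0.17 to 0.80, edgeR adjusted P = 0.277) and 0.12 with olaparib (SE 0.15, edgeR adjusted P = 0.746). Neither passed, and the niraparib libraries were higher than every DMSO library in 3 of 3.

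BEST1 encodes bestrophin 1, a chloride channel opened by calcium and best known from the retinal pigment epithelium (ENSG00000167995), at chr11:61950063-61965515 on the plus strand. It was at 5.31, 4.50 and 3.49 CPM in WT DMSO, at 6.79, 7.49 and 7.89 CPM in WT olaparib and at 39.6, 80.1 and 40.5 CPM in WT niraparib. The PARP1 KO levels of BEST1 were 4.53, 3.99 and 3.03 CPM with DMSO, 4.83, 5.75 and 7.46 CPM with olaparib and 4.12, 2.96 and 5.30 CPM with niraparib. WT niraparib replicate 2, which also stood apart over all genes, was far above the other libraries of its group, and both of those were still above every other library. The other 5 groups, from WT olaparib (7.39 ± 0.555 CPM, SD, n = 3) to PARP1 KO DMSO (3.85 ± 0.757 CPM), overlapped from 1 to the next.

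With niraparib in WT the log2 fold change of BEST1 was 3.51, and 3.10 without WT niraparib replicate 2. With olaparib in WT it was 0.74. In PARP1 KO it was 0.10 with niraparib (SE 0.21, edgeR adjusted P = 0.93) and 0.64 with olaparib (SE 0.21, edgeR adjusted P = 0.072), and neither passed. The olaparib value passed under 3 settings and without 1 library: the adjusted P was 0.0011 by edgeR with no filter on low counts, 0.0208 by DESeq2, 0.0233 by edgeR on only the 6 libraries compared and 0.0459 by edgeR without olaparib replicate 1, within a range of 0.0011 to 0.316.

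Of 4 markers of the retinal pigment epithelium, RPE65, RLBP1 and TTR stayed below 1 CPM in every library and TTR had no count. MITF made up nearly all of the summed level, which was 1.06 to 1.34 CPM in WT DMSO, 2.26 to 2.74 CPM in WT olaparib and 3.40 to 3.97 CPM in WT niraparib, and 1.33 to 1.94 CPM over the PARP1 KO libraries; its part in the level of BEST1 was not tested. FTH1, the ferritin heavy chain gene, lies on the opposite strand and covers 14.6% of the exon bases of BEST1. Its mean was 700 CPM in WT DMSO and 816 CPM in WT niraparib, and the counting used strand.

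**Figure D2:**
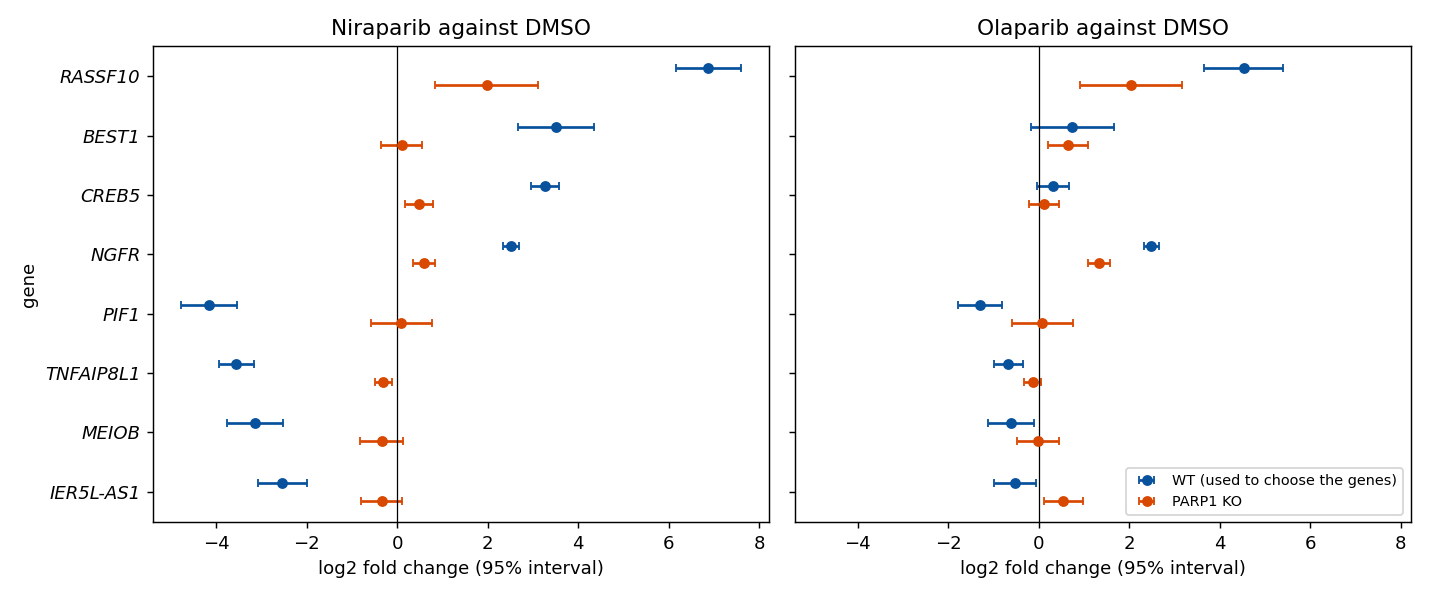
Log2 fold change against DMSO (horizontal axes, 95% interval) of each gene with niraparib and with olaparib, in WT and in PARP1 KO, from fits of 9 libraries each. The genes were chosen on the WT values, so only the PARP1 KO points carry a test; with niraparib 4 WT points lie above 0 and 4 below it.

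PIF1 encodes a DNA helicase that unwinds G-quadruplexes and acts in replication and at telomeres, and it (ENSG00000140451) lies at chr15:64815632-64825668 on the minus strand. It was at 28.1, 18.3 and 18.2 CPM in WT DMSO, at 8.86, 7.95 and 9.37 CPM in WT olaparib and at 0.966, 1.80 and 0.930 CPM in WT niraparib. In the other genotype its levels were 17.6, 16.6 and 10.3 CPM with DMSO, 11.99, 15.1 and 19.9 CPM with olaparib and 14.6, 13.2 and 19.6 CPM with niraparib. The WT groups formed 3 steps without overlap, whereas the PARP1 KO groups overlapped. WT olaparib (8.73 ± 0.720 CPM, SD, n = 3) and WT niraparib (1.23 ± 0.494 CPM) were the 2 lowest groups, each apart from the next, and WT DMSO (21.6 ± 5.69 CPM) overlapped with PARP1 KO.

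In WT the log2 fold change of PIF1 was -4.16 with niraparib and -1.30 with olaparib. In PARP1 KO it was 0.09 with niraparib (SE 0.28, 95% interval -0.59 to 0.76, edgeR adjusted P = 0.96) and 0.08 with olaparib (SE 0.28, 95% interval -0.59 to 0.75, edgeR adjusted P = 0.92). The difference between the genotypes was not tested.

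The PIF1 promoter is shown because PIF1 had the lowest WT log2 fold change of the 8. RefSeq's table (GRCh38.p14) matched 4 of the 8 genes by symbol, CREB5, PIF1, TNFAIP8L1 and IER5L-AS1; the bases before the start of TNFAIP8L1 lay in annotated exons, and the entry for IER5L-AS1 lay outside the gene as counted here, so neither is printed. RASSF10, BEST1, NGFR and MEIOB had no entry under these symbols in the table used, which says nothing about RefSeq's full annotation. For PIF1 the window is chr15:64825669-64825897 on the minus strand, the 229 bases before the first annotated exon, with matches to CCAAT on either strand in capitals.

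PIF1: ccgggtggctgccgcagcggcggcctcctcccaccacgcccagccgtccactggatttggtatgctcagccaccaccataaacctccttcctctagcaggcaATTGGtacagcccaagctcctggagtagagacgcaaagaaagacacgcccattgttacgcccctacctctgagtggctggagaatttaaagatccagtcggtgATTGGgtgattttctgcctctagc

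The window held 2 matches to CCAAT, both on the opposite strand, and 30.6% of the 35116 promoters in the table held at least 1 at the same distance from the start. For CREB5 the first of 3 starts is shown as the contrasting gene that was high with niraparib in WT, at chr7:28412268-28412517 on the plus strand, within the span of the gene and outside annotated exons, with matches on either strand in capitals to the CCAAT box, to the cell cycle element TTTGAA and to the TATA box TATAAA.

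CREB5: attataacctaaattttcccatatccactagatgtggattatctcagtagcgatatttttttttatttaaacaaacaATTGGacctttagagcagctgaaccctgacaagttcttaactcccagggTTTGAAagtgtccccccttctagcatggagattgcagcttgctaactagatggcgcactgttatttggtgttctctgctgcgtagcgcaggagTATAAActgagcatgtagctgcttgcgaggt

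Each of the 3 matched once in this window. Of the other CREB5 starts, the second had 1 match to TTTGAA and none to CCAAT or TATAAA in 250 bases, and the third had no match to any motif searched in 98 bases. For windows like the one shown the share of promoters with a match was 32.0% for CCAAT, 13.3% for TTTGAA and 10.7% for TATAAA. No match to the cyclic AMP response element TGACGTCA, its core TGACG, the AP-1 element TGANTCA, the GC box GGGCGG, the E-box CACGTG, the E2F elements TTTCGCGC and TTTGGCGC, the ETS element CCGGAAG or the EGR element GCGTGGGCG was in either window. A match is a description of letters, and nothing about a factor is drawn from it.

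MEIOB (ENSG00000162039), a single-stranded DNA binding protein of meiotic recombination, lies at chr16:1833987-1884294 on the minus strand. It was at 2.21, 1.72 and 2.20 CPM in WT DMSO, at 1.03, 1.35 and 1.63 CPM in WT olaparib and at 0.187, 0.233 and 0.310 CPM in WT niraparib, the last from 6, 12 and 12 counts. The PARP1 KO libraries held 1.67, 1.30 and 1.89 CPM with DMSO, 1.46, 1.76 and 1.55 CPM with olaparib and 1.42, 1.26 and 1.21 CPM with niraparib. Only the WT niraparib libraries (0.243 ± 0.0622 CPM, SD, n = 3) lay below all others, and the other 5 groups, from 2.05 ± 0.280 CPM in WT DMSO to 1.30 ± 0.108 CPM in PARP1 KO niraparib, overlapped from 1 to the next.

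MEIOB had a WT log2 fold change of -3.14 with niraparib and -0.61 with olaparib. In PARP1 KO the value was -0.34 with niraparib (SE 0.23, 95% interval -0.82 to 0.13, edgeR adjusted P = 0.702) and -0.03 with olaparib (SE 0.22, edgeR adjusted P = 0.973). The germ cell markers DDX4, DAZL, MAEL and TDRD1 stayed below 1 CPM in every library. FAHD1, which overlaps the span of MEIOB on the opposite strand, had a mean of 48.4 CPM in WT DMSO and 66.7 CPM in WT niraparib.

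TNFAIP8L1 (ENSG00000185361), of a family that binds phosphoinositide lipids, lies at chr19:4639516-4655568 on the plus strand. It was at 19.9, 22.4 and 20.5 CPM in WT DMSO, at 12.4, 13.7 and 13.3 CPM in WT olaparib and at 2.24, 1.20 and 2.43 CPM in WT niraparib. Its PARP1 KO levels were 19.9, 17.2 and 18.5 CPM with DMSO, 17.98, 16.8 and 15.6 CPM with olaparib and 16.5, 15.7 and 13.5 CPM with niraparib. WT showed 3 separate levels, and in PARP1 KO the niraparib libraries lay below every DMSO library by a small margin. WT niraparib (1.96 ± 0.661 CPM, SD, n = 3) stood apart from the other 5 groups, which ran from 20.9 ± 1.30 CPM in WT DMSO to 13.1 ± 0.641 CPM in WT olaparib and overlapped from 1 to the next.

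For TNFAIP8L1 the WT log2 fold change was -3.55 with niraparib and -0.68 with olaparib. The PARP1 KO value was -0.30 with niraparib (SE 0.09, 95% interval -0.49 to -0.11, edgeR adjusted P = 0.247) and -0.14 with olaparib (SE 0.09, edgeR adjusted P = 0.439). Neither passed, with 3 of 3 niraparib libraries below every DMSO library. MYDGF, which overlaps it on the opposite strand, had a mean of 87.7 CPM in WT DMSO and 77.0 CPM in WT niraparib.

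IER5L-AS1 (ENSG00000204055) is a noncoding RNA at chr9:129176771-129210548 on the plus strand, antisense to IER5L, which covers 16.04% of its exon bases. It was at 2.74, 2.18 and 2.15 CPM in WT DMSO, at 1.83, 1.64 and 1.41 CPM in WT olaparib and at 0.280, 0.446 and 0.542 CPM in WT niraparib. In the PARP1 KO libraries it was at 1.51, 1.69 and 1.97 CPM with DMSO, at 2.54, 2.52 and 2.42 CPM with olaparib and at 1.38, 1.63 and 1.12 CPM with niraparib. Against DMSO the olaparib libraries were thus lower in WT and higher in PARP1 KO, each without overlap, and the WT niraparib libraries were the lowest of all. By mean PARP1 KO olaparib (2.49 ± 0.0645 CPM, SD, n = 3) overlapped with WT DMSO (2.36 ± 0.331 CPM) at the top, PARP1 KO DMSO, WT olaparib and PARP1 KO niraparib overlapped from 1 to the next, and WT niraparib (0.423 ± 0.132 CPM) was apart and lowest.

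The WT log2 fold change of IER5L-AS1 was -2.54 with niraparib and -0.52 with olaparib. Against DMSO in PARP1 KO it was -0.35 with niraparib (SE 0.22, edgeR adjusted P = 0.68) and 0.54 with olaparib (SE 0.20, 95% interval 0.12 to 0.97, edgeR adjusted P = 0.113), and neither passed. Between the drugs in PARP1 KO it was lower with niraparib by a log2 difference of -0.89 (SE 0.21, edgeR adjusted P = 0.00864), in 3 of 3 libraries. That adjusted P ran from 0.00301 to 0.0434 over the alternatives.

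IER5L itself, an immediate early response gene, was at 28.6, 26.7 and 29.7 CPM in WT DMSO and at 49.1, 42.6 and 46.1 CPM in WT olaparib. It rose there by a log2 fold change of 0.70 (SE 0.06, edgeR adjusted P = 1.26e-07). With olaparib in PARP1 KO its log2 fold change was 0.40 (SE 0.08, edgeR adjusted P = 0.00254), under the fold threshold. How far reads of this gene enter the count of its antisense partner was not tested; the counting used strand.

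**Figure D3:**
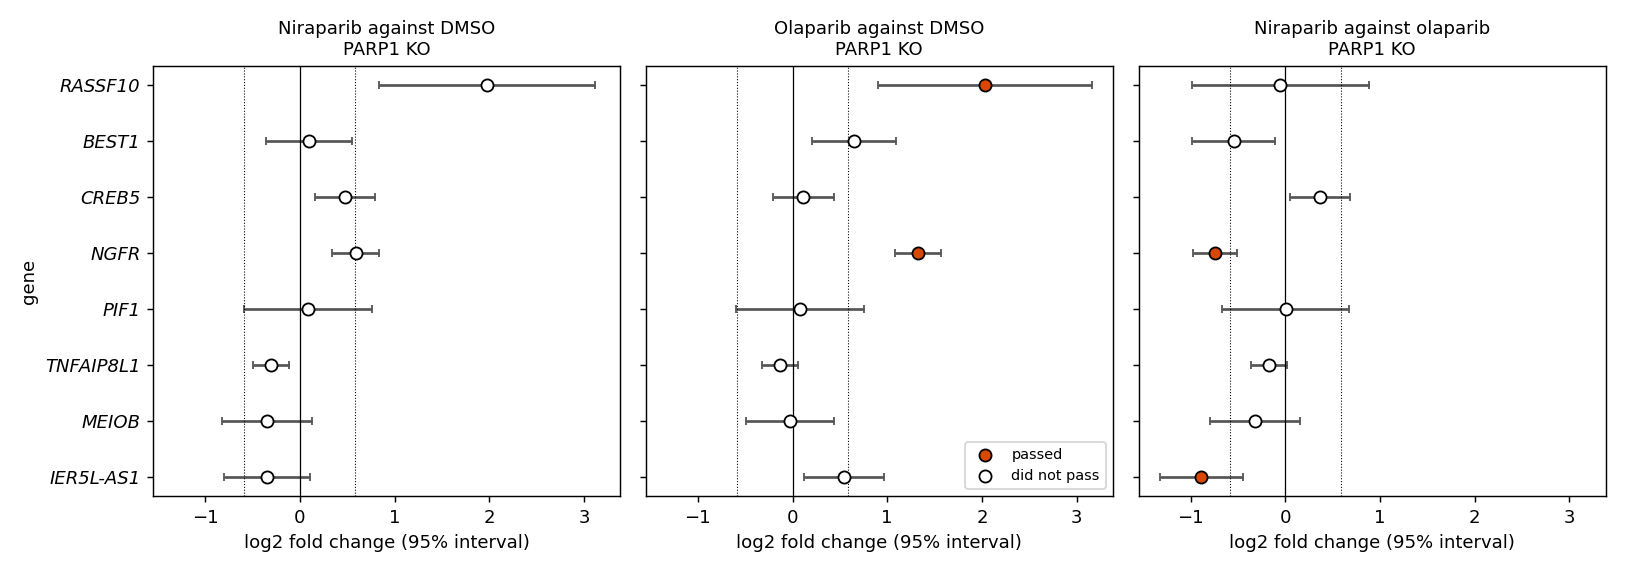
Log2 fold changes with 95% intervals (horizontal axes) of the 8 genes in 3 comparisons within PARP1 KO, from 1 edgeR fit of 9 libraries. Filled points passed the adjusted P and the 1.5-fold threshold (dotted lines): NGFR and RASSF10 with olaparib, and NGFR and IER5L-AS1 between the drugs.

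Between the drugs in PARP1 KO the other 6 genes did not pass. The log2 difference of BEST1, niraparib against olaparib, was -0.54 (SE 0.21, edgeR adjusted P = 0.12), and without niraparib replicate 3 it was -0.77 and passed (edgeR adjusted P = 0.0192, within a range of 0.00601 to 0.405 over the alternatives). That of CREB5 was 0.37 (SE 0.15, edgeR adjusted P = 0.142), and the remaining 4 had edgeR adjusted P values of 0.303 to 0.996. The comparisons with niraparib and with olaparib share the DMSO libraries of their genotype. Without drug, PARP1 KO against WT gave log2 differences from -0.52 for PIF1 to 1.30 for RASSF10, and these use WT libraries and were not tested.

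Relatives of these genes were followed as lists, whose counts stand beside those over all genes tested. An unadjusted P below 0.05 was found in WT for 44.8% of all genes with niraparib and 30.2% with olaparib, and in PARP1 KO for 9.13% and 21.1%. Of all genes, edgeR called 13.8% and 4.04% with these drugs in WT, and 0.0136% and 0.803% in PARP1 KO. Of the 9 RASSF family genes 3 rose and 1 fell with niraparib in WT, beside 13.8% of all genes called in either direction. These 4 were also the only ones of the 9 with an unadjusted P below 0.05. The median log2 fold change was 0.96, the value of RASSF1 itself, beside -0.02 over all genes, and 2 of the 4 genes above it had no such P. RASSF1 was at 25.9, 23.2 and 22.03 CPM in WT DMSO and at 48.0, 52.3 and 46.6 CPM in WT niraparib (log2 fold change 0.96, SE 0.07, edgeR adjusted P = 2.3e-10). RASSF8 and RASSF6 rose with it by 1.003 and 1.84 on the log2 scale, and RASSF7 fell by 0.73. With olaparib in WT both tools called 0 of the 9, with 4 at an unadjusted P below 0.05. The median log2 fold change of the 9 was 0.27 there, beside -0.02 over all genes, and DESeq2 gave no adjusted P for 2. In PARP1 KO edgeR and DESeq2 each called 0 of the 9 with either drug. An unadjusted P below 0.05 was found there for 0 with niraparib and 2 with olaparib. DESeq2 gave no adjusted P for 3 of the 9 with each drug in PARP1 KO.

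Among 12 CREB, ATF and AP-1 factors 5 rose with niraparib in WT, beside 13.8% of all genes called, with a median log2 fold change of 0.46 beside -0.02 over all genes, and 11 had an unadjusted P below 0.05, beside 44.8%. CREM, a factor that binds cyclic AMP response elements and belongs with CREB1 and ATF1, was at 6.27, 8.02 and 7.10 CPM in WT DMSO and at 14.7, 14.2 and 15.03 CPM in WT niraparib (log2 fold change 0.93, SE 0.12, edgeR adjusted P = 1.16e-06). FOSL1, FOSB, JUN and JUND were the others, and the last pair lie outside the naming rule and were named after their values were seen. With olaparib in WT 1 rose, JUNB, by 0.83, beside 4.04% of all genes called. In that comparison 7 of the 12 had an unadjusted P below 0.05, beside 30.2% of all genes. FOS, named after its values were seen, was at 43.4, 46.1 and 46.4 CPM with DMSO in PARP1 KO and at 86.4, 85.8 and 79.7 CPM with niraparib. FOS was the 1 of the 12 that edgeR called with niraparib in PARP1 KO (log2 fold change 0.88, SE 0.08, edgeR adjusted P = 8.23e-06), beside 0.0136% of all genes. DESeq2 called 2 of the 12 there, the other being FOSB (DESeq2 adjusted P = 0.0156), whose log2 fold change of 1.09 (SE 0.25, edgeR adjusted P = 0.245) did not pass by edgeR. With olaparib in PARP1 KO 0.803% of all genes were called. FOS rose there by 0.76 (SE 0.08, edgeR adjusted P = 2.16e-05) together with FOSB, by 1.03 (SE 0.25, edgeR adjusted P = 0.0488). In PARP1 KO 4 of the 12 had an unadjusted P below 0.05 with niraparib and 7 with olaparib, beside 9.13% and 21.1% of all genes. DESeq2 gave no adjusted P for 1 of the 12 with each drug in PARP1 KO.

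Of 33 listed genes of meiotic recombination 31 were matched by symbol and 19 tested, and with niraparib in WT 5 rose and 1 fell, beside 13.8% of all genes called, and 9 had an unadjusted P below 0.05, beside 44.8%. PSMC3IP, a partner of the meiotic recombinase, was at 23.7, 23.4 and 25.9 CPM in WT DMSO and at 73.5, 71.0 and 70.1 CPM in WT niraparib (log2 fold change 1.46, SE 0.06, edgeR adjusted P = 1.4e-14). DMC1, that recombinase, rose by 1.09, SMC1B by 1.53 from a mean of 0.352 CPM and BRME1 by 1.08, where the value of MEIOB was negative. HSF2BP, which rose, and SYCP2, which fell, complete the 6 and were named after their values were seen. With olaparib in WT 4 rose, PSMC3IP, DMC1, SMC1B and, named after its value was seen, MND1, beside 4.04% of all genes called. In PARP1 KO edgeR and DESeq2 each called 0 of the 19 with either drug. Over all genes edgeR called 0.0136% there with niraparib and 0.803% with olaparib. Of the 19, 1 had an unadjusted P below 0.05 with niraparib and 3 with olaparib, and DESeq2 gave no adjusted P for 13 and 10 of them. SMC1B had log2 fold changes of 1.05 with niraparib (SE 0.43, edgeR adjusted P = 0.448) and 1.12 with olaparib (SE 0.42, edgeR adjusted P = 0.111) in PARP1 KO. Every drug library lay above every DMSO library there, at low levels.

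Of 15 DNA helicases 2 rose with niraparib in WT, BRIP1 by 0.83 and TWNK by 0.62, beside 13.8% of all genes called, and 11 of the 15 had an unadjusted P below 0.05, beside 44.8% of all genes. Both tools called 0 of the 15 with olaparib in WT, where 6 had an unadjusted P below 0.05. In PARP1 KO both called 0, where edgeR called 0.0136% of all genes with niraparib and 0.803% with olaparib. There 3 of the 15 had such a P with each drug. DESeq2 gave no adjusted P for 1 of the 15 there with each drug. In neurotrophin signalling edgeR called 1 of the 15 genes tested in WT with olaparib, beside 4.04% of all genes called. It was RTN4R, which rose by 0.83. DESeq2 called 2, the other being NTF4, named after its value was seen, which fell (log2 fold change -0.61, DESeq2 adjusted P = 0.0253). With olaparib in WT 7 of the 15 had an unadjusted P below 0.05, beside 30.2% of all genes, and DESeq2 gave no adjusted P for 6. With niraparib in WT both tools called 0, with 4 at an unadjusted P below 0.05, and DESeq2 gave no adjusted P for 3. Of the 13 tested in PARP1 KO both tools called 0, beside the same 0.0136% and 0.803% of all genes. An unadjusted P below 0.05 was found for 2 with niraparib and 6 with olaparib. DESeq2 gave no adjusted P for 4 of the 13 with each drug.

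Of 11 anion channels edgeR and DESeq2 each called 0 in WT, where 6 had an unadjusted P below 0.05 with niraparib and 3 with olaparib, and 0 of 10 in PARP1 KO, where 2 had one with each drug. The WT counts of 6 and 3 stand beside the 44.8% and 30.2% of all genes with such a P. The calls of 0 stand beside 13.8% and 4.04% of all genes called by edgeR in WT, and 0.0136% and 0.803% in PARP1 KO. In WT DESeq2 gave no adjusted P for 2 of the 11 with niraparib and 4 with olaparib. In PARP1 KO it gave none for 3 of the 10 with each drug. TNFAIP8L3 rose with niraparib in WT by 1.30 from a mean of 0.418 CPM, the 1 call by either tool among the 2 TNFAIP8 family genes tested of 3, beside 13.8% of all genes called. With olaparib in WT and with either drug in PARP1 KO edgeR and DESeq2 each called 0 of the 2, beside the shares given above. An unadjusted P below 0.05 was found for 1 with olaparib in each genotype and for 0 with niraparib in PARP1 KO. DESeq2 gave no adjusted P for 1 of the 2 with each drug in PARP1 KO. IER5L was the 1 call by either tool among 4 IER genes with olaparib in WT, beside 4.04% of all genes called, and all 4 had an unadjusted P below 0.05 there. Both tools called 0 of the 4 with niraparib in WT, where 3 had such a P, and 0 in PARP1 KO, where 1 had one with niraparib and 2 with olaparib. These calls of 0 stand beside the same shares of all genes.

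The genes most like each of the 8 over all 18 libraries were found by Pearson's r of log2(CPM + 0.5) among the 13528 genes that averaged 1 CPM or more. The 18 libraries form 6 groups, so r mostly follows the group levels. For NGFR they included BTG2 (r = 0.99) and CMIP (r = 0.98). BTG2 had means of 29.6, 88.0 and 101 CPM in WT with DMSO, olaparib and niraparib, and of 25.5, 45.8 and 30.4 CPM in PARP1 KO. That is the order of groups seen for NGFR within each genotype. It follows from the choice of BTG2 by its r over these same libraries.

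For CREB5 the nearest were CSRP1, TNFRSF12A and KRT80, and for BEST1 GTPBP2, TRAF4 and ZFP90. RASSF10 was nearest to SLC39A14, BDKRB2 and LAT2, though none of these was among its 10 nearest with a pseudocount of 2 CPM or in the 9 WT libraries alone. RASSF10 averaged 1.245 CPM over the 18 libraries and met the minimum only through WT niraparib, the other groups being at 0.0375 to 1.01 CPM. TNFAIP8L1 was nearest to the mitotic genes KIF20A (r = 0.99) and PLK1 (r = 0.99) and to METTL7A. KIF20A had a mean of 188 CPM in WT DMSO and 25.2 CPM in WT niraparib.

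PIF1 was nearest to TECPR1, GAS2L1 and CDCA3, MEIOB to CHEK2, SLC9A2 and DEPDC1, and IER5L-AS1 to GAS2L3, SLC11A2 and GASK1A. By Spearman's rho 0 of the 3 genes for PIF1, 0 of the 3 for BEST1 and 1 of the 3 for NGFR were among the 10 nearest. In the 9 WT libraries alone it was 1 of the 3 for CREB5, for PIF1 and for IER5L-AS1.

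**Figure D4:**
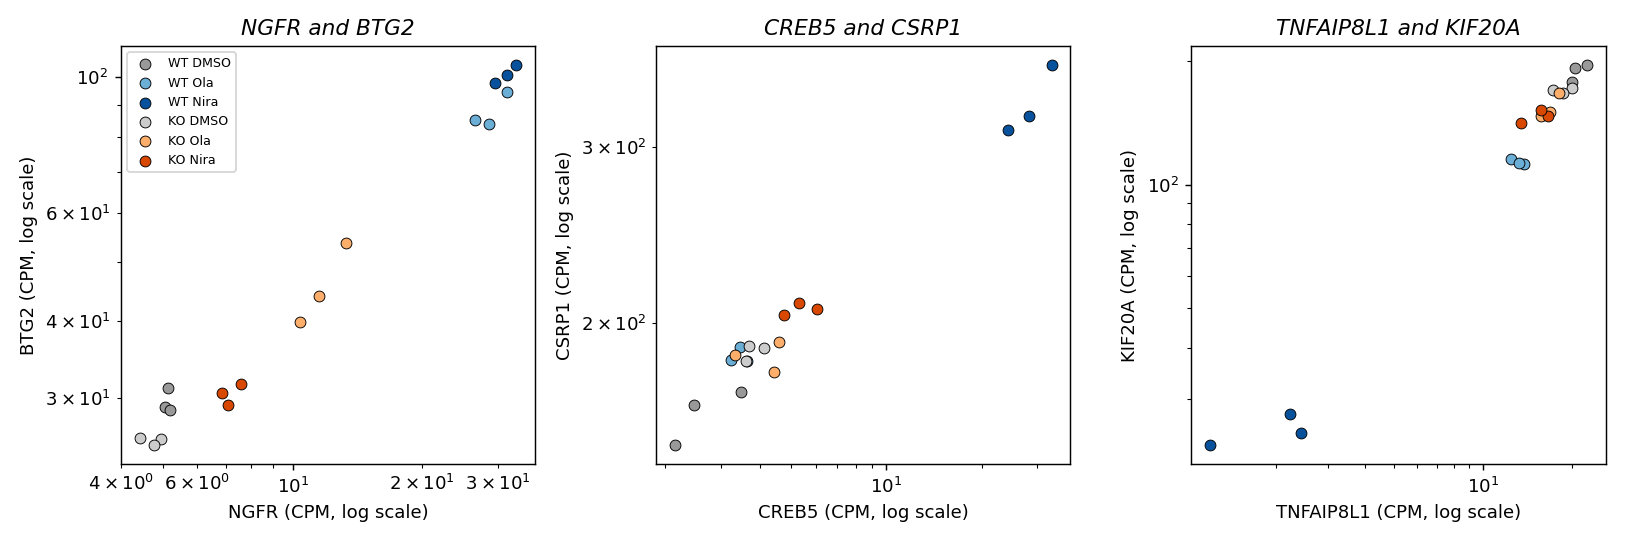
Level of NGFR, CREB5 and TNFAIP8L1 (horizontal axes, CPM on log scales) against the gene most like each, BTG2, CSRP1 and KIF20A (vertical axes, CPM on log scales), with 1 point for each of the 18 libraries. WT niraparib libraries lie at the high end for NGFR and CREB5 and at the low end for TNFAIP8L1.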

How the data were processed

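The deposited values are raw counts per gene and library, made by the authors. Per the file headers, featureCounts 2.0.0 counted primary alignments over exons of the GRCh38 annotation, release 96, on the reverse strand (setting 2). The study's methods name Trimmomatic, STAR and Picard; the headers call the input deduplicated, where the methods speak only of marking duplicates. RNA input and extraction kit differ between labels and methods. Symbols were matched for 58472 of 58884 identifiers.

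Each genotype's 9 libraries were fitted with edgeR 4.0.16 in R 4.3.3 (TMM, robust quasi-likelihood test, Benjamini-Hochberg adjustment over all genes tested), after a filter of more than 10 counts in total. Called means adjusted P below 0.05 and more than 1.5-fold. The fits were tested on simulated data. DESeq2 1.42.0, RLE scaling, other filters, a replicate block, all 18 or only 6 libraries, other thresholds and leaving out each library were the alternatives. Levels are CPM of the library total.

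Members and lists were chosen with earlier results of these data known. Named genes are the 8, PARP1, genes within 10 kb, the 3 most alike by Pearson's r, at most 4 called genes per list of relatives, and the gene next in rank; 1 of the genes most alike is not reported here. Of the marker lists, basal markers had 4 of 7 genes at a mean of at least 1 CPM (ACTA2 most abundant, 43.1 CPM), fibroblast markers 1 of 4 (COL1A1, 110 CPM) and neural crest markers 0 of 4.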

Additional observations from a re-analysis of the deposited data

Results flagged for a closer look

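IER5L-AS1 had log2 fold changes of opposite sign with olaparib in the 2 genotypes, -0.52 in WT, a value the choice used, and 0.54 in PARP1 KO, which did not pass (edgeR adjusted P = 0.113, 0.0868 to 0.298 over the alternatives). All 3 WT olaparib libraries (1.83, 1.64 and 1.41 CPM) lay below the mean of WT DMSO, 2.36 CPM, and all 3 PARP1 KO olaparib libraries (2.54, 2.52 and 2.42 CPM) lay above the mean of PARP1 KO DMSO, 1.72 CPM. In a fit of all 18 libraries, where these values were 0.54 and -0.52 as well, the log2 fold change in PARP1 KO was higher than that in WT by 1.07 before rounding. This difference was not tested, since the gene was chosen on WT libraries. Groups of 3 libraries are too small for a test of single libraries.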

How the results depend on the processing

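Genes called in PARP1 KO numbered 3 with niraparib, 177 with olaparib and 236 between the drugs. With niraparib the number was 24 with no filter on low counts, 8 by DESeq2, 6 with all 18 libraries in the fit, 24 by adjusted P alone and 0 above a log2 fold change of 1.5, and 2 to 3 when single libraries were left out. With olaparib it was 1827 by adjusted P alone, 21 above a log2 fold change of 1.5 and 100 to 195 without single libraries (113 without olaparib replicate 2, 100 and 107 without DMSO replicates 2 and 3). Between the drugs these were 2203, 24 and 144 to 281, the lowest without niraparib replicate 2. Of the 8 genes, the number called with niraparib went from 0 to 1 by DESeq2 (NGFR) and with all 18 libraries (RASSF10). With olaparib it went from 2 to 1 above a log2 fold change of 1.5, was 3 with no filter on low counts and with only the 6 libraries compared, and was 1 to 2 without single libraries; by DESeq2 it was 2, NGFR and BEST1, with no adjusted P for RASSF10. Between the drugs it went from 2 to 0 above a log2 fold change of 1.5, and was 2 to 3 without single libraries.

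The labels do not say what the replicate numbers mark, so whether they pair the libraries is not known. Of 9 same-numbered pairs in PARP1 KO, r of their deviations exceeded 0.1 in 2 (range -0.52 to 0.58). Of 9 in WT it did so in 3 (range -0.56 to 0.39). With the replicate block 2, 148 and 206 genes were called in PARP1 KO, and 0, 2 and 2 of the 8.

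Signs turned only for values near 0, none of them called. Without 1 library, niraparib against DMSO gave -0.14 to 0.29 for BEST1 (-0.05 in another case) and -0.13 to 0.23 for PIF1 (-0.11 in another). Olaparib against DMSO gave -0.11 to 0.23 for PIF1 and -0.16 to 0.12 for MEIOB (0.03 in another). Niraparib against olaparib gave -0.19 to 0.075 for RASSF10 (0.04 and 0.02 in others) and -0.18 to 0.20 for PIF1 (-0.15 and -0.01 in others); for PIF1 it was -0.0058 by DESeq2, -0.0007 with all 18 libraries and -0.0118 with only the 6 compared. Over the alternatives, 324 values of the 8 genes in PARP1 KO kept sign and side of the threshold, 17 turned sign, 7 gained and 7 lost a call. In WT 150 of their log2 fold changes moved by less than the replicates' SD and 10 by more. Of the 24 comparisons of most alike genes, 16 kept at least 2 of 3. Where DESeq2 gave no adjusted P, no verdict was counted. Leaving out a library keeps edgeR's pooled spread. The causes were not tested. Low counts of RASSF10, MEIOB and IER5L-AS1 limit their precision.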
